A study of Solanum lycopersicum with 96 samples.

Results

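The stretch of tomato chromosome 6 between 1 and 34 Mb is a 33 Mb block in which the cultivar Bolstar has less sequence listed than the cultivar Moneyberg. Its members are the listed regions of chromosome 6 whose midpoint lies between these positions. They number 11606 of the 237372 regions in 8 deposited lists, and a further 2509 regions lie on the rest of chromosome 6. The listed shares of the cultivars in these same lists chose the stretch, so the difference between the cultivars is a description here and no test was run on it.

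Seed of both cultivars was examined by whole-genome bisulfite sequencing, in which unmethylated cytosines are converted and methylated ones are not. The question of the series was whether giving chemical elicitors to mother plants, which prime the defences of plants, leaves a trace in the DNA methylation of the seed. Bolstar seed came from mother plants given BABA (beta-aminobutyric acid) in time window 2 (Bolstar BABA TW2), Ina in time window 2 (Bolstar Ina TW2) or the control treatment (Bolstar control). Moneyberg seed came from mother plants given BABA in time window 2 (Moneyberg BABA TW2), BABA in time window 3 (Moneyberg BABA TW3), Ina in time window 2 (Moneyberg Ina TW2), MeJA (methyl jasmonate) in time window 3 (Moneyberg MeJA TW3) or the control treatment (Moneyberg control). Each group has 12 libraries, which are 2 libraries for each of 6 replicates, and each DNA extraction pooled 10 seeds. The libraries of a group stand in 1 pooled list, so there is no replicate error, and the spread given below is that between the lists of a cultivar, which differ in treatment.

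In plants, cytosines are methylated next to guanine and also in other sequence contexts, and the methylation outside CG is concentrated on transposons and other repeats. The middle of each tomato chromosome is a wide block of repeat-rich heterochromatin around the centromere, and most genes lie towards the ends. Tomato breeding has brought pieces of chromosome 6 from wild relatives into cultivars, but the labels give no pedigree of either cultivar. The region names begin with HYPO, and the lists state no methylation level, so a region is called listed here and not more or less methylated. Each region has a whole-number score that grows with its length and is taken to count the cytosine sites within it. This comes from the values, not from a stated definition. The files hold no reads, sequence variants or methylation levels, so a difference in methylation, in DNA sequence or in how reads mapped to the reference genome cannot be told apart.

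Every Bolstar list had less of the stretch listed than every Moneyberg list. Listed regions covered 18.7 Mb of the stretch in Bolstar BABA TW2, 19.1 Mb in Bolstar Ina TW2 and 18.7 Mb in Bolstar control, which is 56.6%, 57.9% and 56.8% of its length. They covered 21.4 to 21.5 Mb in the 5 Moneyberg lists, which is 64.9% to 65.2%. The means differed by -7.96 percentage points (Bolstar minus Moneyberg), or -12.2% of the Moneyberg mean. The rest of chromosome 6 is mostly the far end of the chromosome beyond 34 Mb and is only thinly listed. Its means were 15.5% in Bolstar and 17.4% in Moneyberg. The difference there was -1.90 points, which is -10.9% of the Moneyberg mean, so in relative terms the rest of the chromosome was close to the stretch. The lowest score in a whole list was 71 to 85 in Bolstar and 65 to 71 in Moneyberg, so the Moneyberg lists reach down to lower scores. With a common minimum score of 85 in every list the difference in the stretch was -6.99 points. The rest of chromosome 6 is not given at that minimum, so its relative closeness holds for the lists as deposited only.

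The difference ran along the whole stretch. Of its 33 bins of 1 Mb, 32 held listed sequence in at least 1 list. In 30 of these every Bolstar list lay below every Moneyberg list, where 17.2% of the listed 1 Mb bins of all chromosomes did so, and in 0 bins was the order the reverse, against 19.8% over all chromosomes. The other 2 bins were 10 to 11 Mb, where at most 0.0089% was listed, and 19 to 20 Mb, with 79.6% to 83.7% in Bolstar and 82.9% to 85.6% in Moneyberg. The mean difference reached 5 percentage points in 22 of the 30 bins, where 3.51% of all listed bins had both the order and that size. The reverse order with that size held in 0 bins of the stretch, against 2.76% of all listed bins. Elsewhere on chromosome 6, 8 of 17 bins had every Bolstar list below every Moneyberg list, and 0 of them by 5 points. The shares over all chromosomes include the stretch itself. On the other chromosomes, 13.2% of 748 listed bins had every Bolstar list below, and 0.802% by 5 points. The reverse order held there in 21.1%, and in 2.94% by 5 points. Since the stretch was chosen by these shares, nothing is read from its counts against the background.

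**Figure D1:**
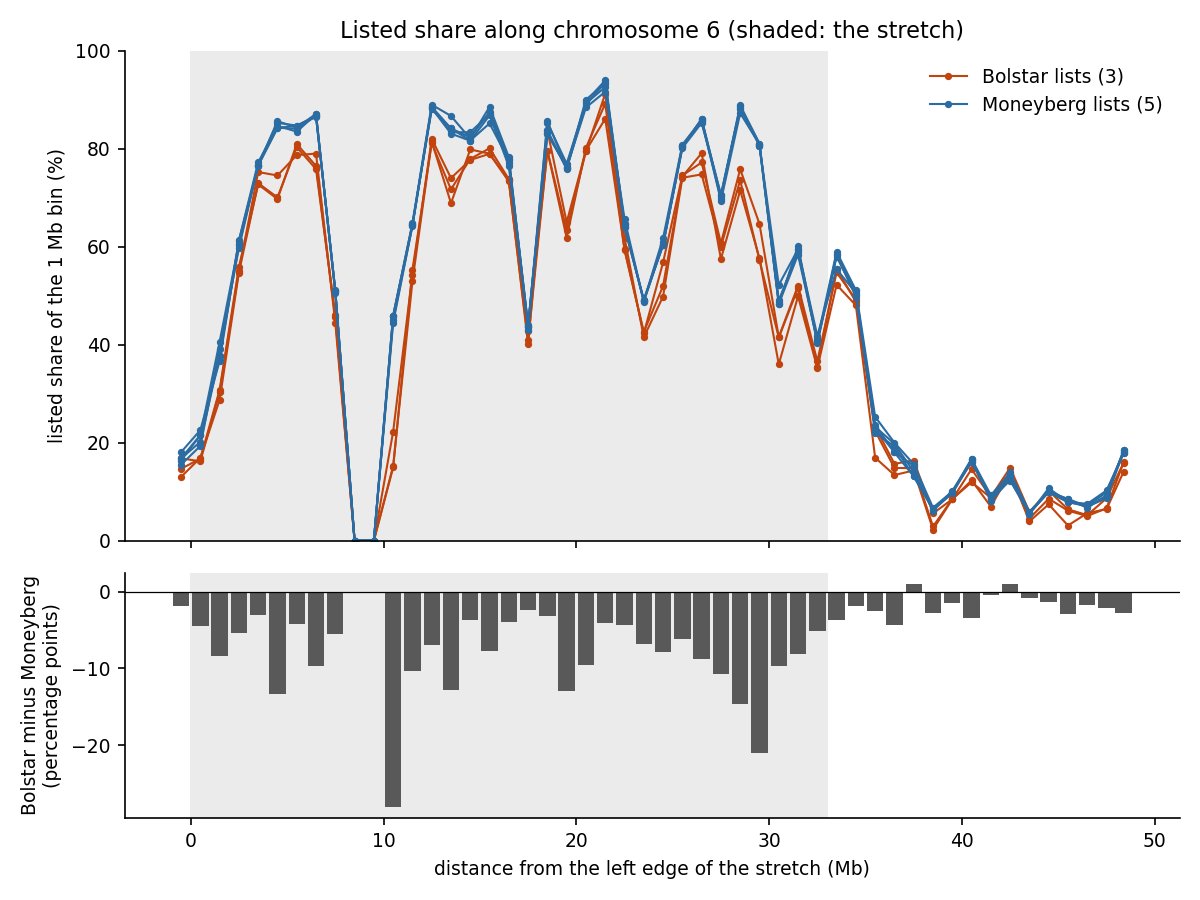
The upper panel plots the listed share of each 1 Mb bin (percent of bases) against the distance from the left edge of the stretch (Mb), with 1 line for each of 3 Bolstar and 5 Moneyberg lists and the stretch shaded. The lower panel plots the mean of the Bolstar lists minus the mean of the Moneyberg lists (percentage points), and its deepest bars stand at -28.0 and -21.0 points.

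The deepest difference lay from 11 to 12 Mb. Listed sequence filled 14.9%, 22.2% and 15.2% of this bin in Bolstar BABA TW2, Bolstar Ina TW2 and Bolstar control, against 44.5% to 45.9% in the Moneyberg lists, a difference of -28.0 points. The bin from 30 to 31 Mb came next, with 57.6%, 64.7% and 57.3% in the same Bolstar lists against 80.6% to 81.1% in Moneyberg, a difference of -21.0 points. The differences were -14.6 points from 29 to 30 Mb, -13.4 points from 5 to 6 Mb and -12.9 points from 20 to 21 Mb. In the first bin inside the left edge, from 1 to 2 Mb, 16.2% to 16.9% was listed in Bolstar and 19.3% to 22.6% in Moneyberg, a difference of -4.42 points. In the first bin beyond the right edge, from 34 to 35 Mb, the lists of the cultivars overlapped, with 52.2% to 55.5% in Bolstar and 55.4% to 59.0% in Moneyberg.

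The edges themselves are round positions, and the regions of the control lists nearest to them had the same or nearly the same ends and scores. Just inside the left edge both control lists hold 1020678 to 1037419 with a score of 389. Just outside it, Bolstar control has a region from 984289 to 1006494 with a score of 272, and Moneyberg control has one from the same start to 1006407 with a score of 271. Just inside the right edge both control lists hold 33927165 to 33955183 with a score of 567. Just outside it, Bolstar control has 34002043 to 34009716 with a score of 130 and Moneyberg control 34002043 to 34009518 with a score of 128.

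At 100 kb the pattern broke into patches. Of 299 listed bins of the stretch, every Bolstar list lay below every Moneyberg list in 165, where 15.9% of all listed 100 kb bins did so. The reverse order held in 7, where 19.0% of all listed bins had it, and in 5 of them by at least 5 points, against 9.35%. The order below came with a difference of at least 5 points in 138 bins, against 10.0% over all chromosomes. The rest of chromosome 6 had 45 of 151 bins below and 21 above. By at least 5 points, 34 of its bins (22.5%) were below and 11 above, so differences of that size were not limited to the stretch. The longest unbroken run of bins below covered 10 bins, from 21.2 to 22.2 Mb, with a mean of 81.9% in Bolstar and 92.2% in Moneyberg. Runs of 7 bins began at 11 Mb, 12.3 Mb and 29.2 Mb, and the run at 11 Mb averaged 25.0% in Bolstar and 64.9% in Moneyberg.

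Single 100 kb bins were nearly empty in Bolstar and nearly full in Moneyberg. From 11.5 to 11.6 Mb, Bolstar BABA TW2 had 7.03% listed, Bolstar Ina TW2 10.96% and Bolstar control 10.4%, against 90.0% to 94.9% in the Moneyberg lists. From 30.1 to 30.2 Mb the Bolstar lists had 9.13%, 20.6% and 8.17% in the same order, against 88.3% to 88.7% in Moneyberg. The Bolstar lists did not always stand together: from 14.8 to 14.9 Mb, Bolstar Ina TW2 had 56.9% listed where Bolstar BABA TW2 had 18.3% and Bolstar control 17.2%, against 93.9% to 94.6% in Moneyberg. From 11.4 to 11.5 Mb, Bolstar Ina TW2 had 30.5% listed and the other Bolstar lists 0.0%, against 65.1% to 70.3% in Moneyberg. The largest difference in the other direction was from 17.9 to 18.0 Mb, with 73.6% to 79.6% in Bolstar and 51.3% to 57.8% in Moneyberg.

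Some sequence was listed in neither cultivar. No list had a base from 8599873 to 10999911, a gap of 2.40 Mb that includes the only empty 1 Mb bin of the stretch. The next longest gaps common to all 8 lists ran from 11687536 to 12287670 and from 18349162 to 18758415. A gap can mean that no region was called or that the reference or the reads there allowed no call, which the files do not show.

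Bolstar regions in the stretch were shorter at the long end. The longest region measured 106 kb in Bolstar BABA TW2, 61.9 kb in Bolstar Ina TW2 and 74.7 kb in Bolstar control, against 152 to 186 kb in the Moneyberg lists. Regions of 50 kb or more numbered 24, 11 and 13 in these Bolstar lists and 34 to 45 in the Moneyberg lists. They held 3.19% to 8.04% of the listed sequence in Bolstar and 12.1% to 15.2% in Moneyberg. Median lengths overlapped, at 8.73 to 10.3 kb in Bolstar and 10.1 to 11.005 kb in Moneyberg. The number of regions overlapped too, at 1339 to 1692 in Bolstar and 1359 to 1508 in Moneyberg. The long end was shorter in Bolstar on the rest of chromosome 6 as well. The longest region there measured 40.6 to 63.2 kb in Bolstar and 63.8 to 69.4 kb in Moneyberg. Regions of 50 kb or more numbered 0 to 1 in Bolstar and 2 to 3 in Moneyberg. They held 0.0% to 2.64% and 4.22% to 6.62% of the listed sequence there.

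Long Moneyberg regions appeared in Bolstar as several pieces. Of the 1508 Moneyberg control regions of the stretch, 305 were touched by 2 or more regions of Bolstar BABA TW2, 415 by 2 or more of Bolstar Ina TW2 and 359 by 2 or more of Bolstar control. These are 20.2%, 27.5% and 23.8%, where over all chromosomes 9.61%, 14.4% and 11.6% of Moneyberg control regions were touched in this way by the same lists. The other Moneyberg lists split 4.44% to 5.31% of the same 1508 regions, where they split 6.19% (BABA TW2), 6.19% (BABA TW3), 6.47% (Ina TW2) and 5.45% (MeJA TW3) over all chromosomes. Of the 363 shorter regions on the rest of chromosome 6, the Bolstar lists split 1.93% to 3.86% and the Moneyberg lists 0.551% to 1.10%.

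**Figure D2:**
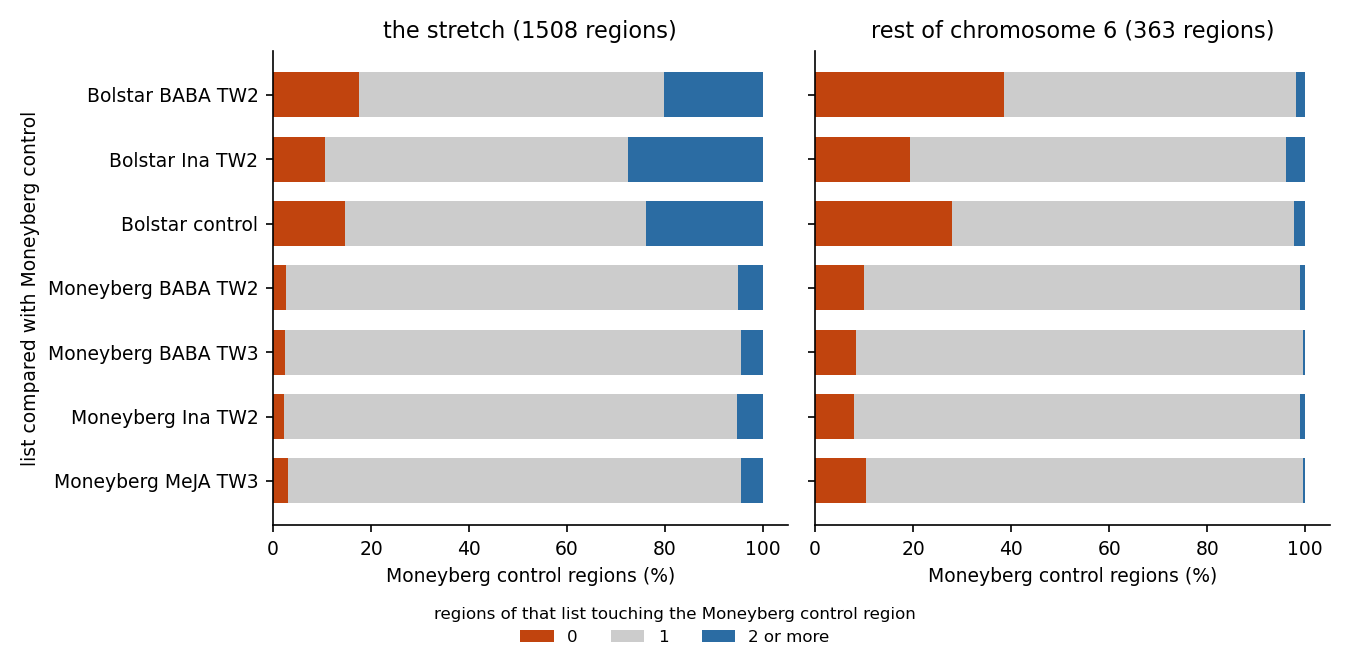
Bars show the percent of Moneyberg control regions touched by 0, by 1 or by 2 or more regions of each other list, in the stretch (1508 regions) and on the rest of chromosome 6 (363 regions). In the stretch the share touched by 2 or more regions runs from 20.2% to 27.5% for the Bolstar lists at the top and from 4.44% to 5.31% for the Moneyberg lists below them.

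The clearest case is a pair of neighbouring regions near 12.6 Mb that are the longest of Moneyberg control in the stretch. The region from 12674752 to 12832724 is 158 kb long with a score of 9211, which is 58.3 per kb. It was broken into 21 pieces in Bolstar BABA TW2, 21 in Bolstar Ina TW2 and 17 in Bolstar control, which together covered 92.9% to 97.6% of it. The other Moneyberg lists held it in 1 to 3 pieces. Its neighbour from 12516037 to 12668185, 152 kb long with a score of 8485, lay in 22, 28 and 25 pieces in the same Bolstar lists, covering 81.8% to 92.1%, and in 1 piece in every Moneyberg list. The third longest, from 23099651 to 23231447 (132 kb), was in 4 to 7 Bolstar pieces and 1 to 3 Moneyberg pieces, and 98.9% to 99.0% of it was covered in Bolstar. The Bolstar breaks in these regions were thus narrow relative to the regions.

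Sequence was next sorted by which lists hold it. Of the stretch, 15.5 Mb was listed in all 8 lists, which is 67.7% of the sequence listed in at least 1. Sequence in all 5 Moneyberg lists and in no Bolstar list came to 1.64 Mb (7.17%) in 682 segments, while sequence in all 3 Bolstar lists and no Moneyberg list came to 317 kb (1.38%) in 296 segments. The same classes held 290 kb (8.18%) and 156 kb (4.41%) on the rest of chromosome 6. More sequence than that missing from every Bolstar list was missing from only some of them. Sequence in all Moneyberg lists and exactly 2 Bolstar lists came to 874 kb where Bolstar BABA TW2 lacked it, 712 kb where Bolstar Ina TW2 lacked it and 725 kb where Bolstar control lacked it. Sequence in all Moneyberg lists and 1 Bolstar list was held by Bolstar Ina TW2 in 695 kb, by Bolstar BABA TW2 in 334 kb and by Bolstar control in 261 kb. Bolstar Ina TW2 also has the lowest minimum score of the Bolstar lists. With a common minimum score of 85, these lists held 425 kb, 409 kb and 301 kb in the same order.

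**Figure D3:**
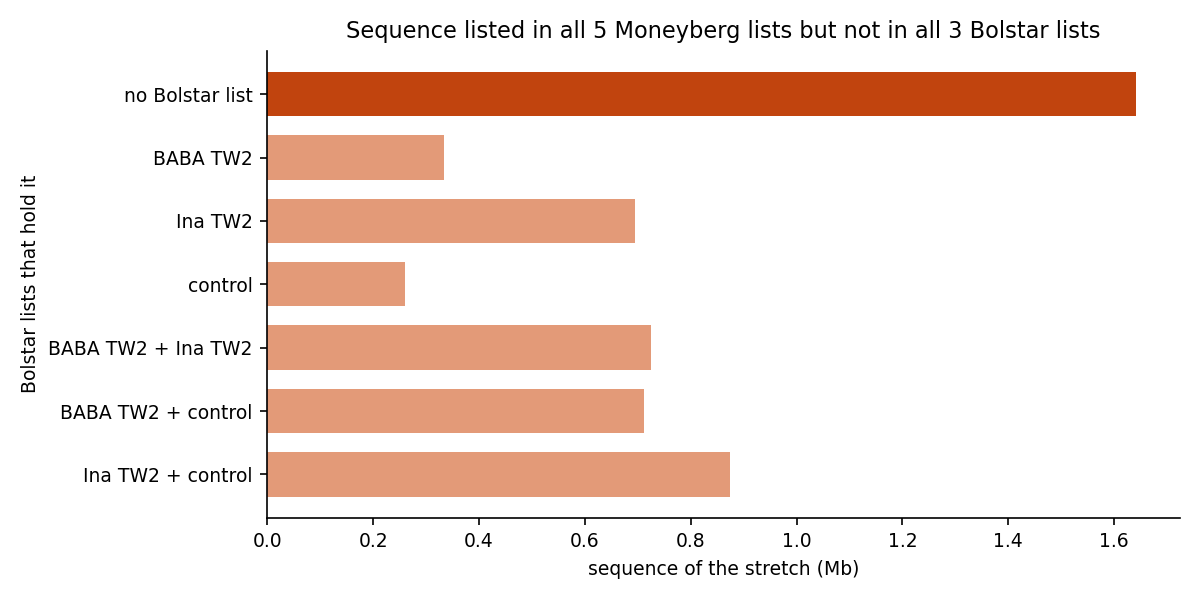
Bars show how much sequence of the stretch (Mb) was listed in all 5 Moneyberg lists but not in all 3 Bolstar lists, split by the Bolstar lists that hold it. The class with no Bolstar list is the longest bar at 1.64 Mb, and the other bars run from 0.261 to 0.874 Mb.

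The segments absent from Bolstar were mostly pieces of longer Moneyberg blocks. Of the 1.64 Mb, 97 segments were whole blocks (684 kb, 41.6% of the bases), 369 were at the edge of a block that Bolstar held in part (765 kb, 46.6%) and 216 lay inside such a block (193 kb, 11.7%). Whole blocks made up 70.1% of these bases on the rest of chromosome 6. The longest segment in every Moneyberg list and no Bolstar list ran from 11500603 to 11526660 (26.1 kb). The next were 20810233 to 20833301 (23.1 kb), 30140086 to 30162236 (22.2 kb), 30119430 to 30139818 (20.4 kb) and 5235813 to 5251829 (16.02 kb). The longest segment of the opposite kind, 29962556 to 29971105, measured 8.55 kb. Among segments held by all Moneyberg lists and by 1 or 2 Bolstar lists, the longest was 7588888 to 7607799 (18.9 kb), which Bolstar Ina TW2 alone held in Bolstar.

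Counted as whole regions, fewer were missing. Of the 1484 Bolstar control regions of the stretch, 7 (0.472%) had no base in any Moneyberg list, where 1.83% of Bolstar control regions did over all chromosomes. Of the 1508 Moneyberg control regions, 113 (7.49%) had no base in any Bolstar list, where 5.05% did over all chromosomes. These shares were larger on the rest of chromosome 6, at 14 of 275 (5.09%) for Bolstar control and 56 of 363 (15.4%) for Moneyberg control. The 113 regions had a median score of 87, near the lowest scores that the Bolstar lists contain, and 62 of them scored at least 85. The 56 on the rest of chromosome 6 had a median score of 77, and only 17 of them scored at least 85. Of the 14 Bolstar control regions there, 11 did. The larger share for Moneyberg control on the rest thus rests mostly on regions that score below 85.

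The highest score among the 113 was 279, at 30140086 to 30166979 (26.9 kb). It was followed by 11378836 to 11394203 with 256, 5257338 to 5270288 with 249, 30167483 to 30182262 with 246 and 24022450 to 24034188 with 226. All 5 were touched by all 5 Moneyberg lists. The 7 Bolstar control regions had a median score of 110, and 6 of them scored at least 85. Their highest score was 142, at 33322850 to 33330438 (7.59 kb), which all 3 Bolstar lists touched.

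The lists of a cultivar were then compared pair by pair. The Jaccard index divides the bases that a pair of lists has in common by the bases in at least 1 of them. In the stretch it was 0.786 to 0.821 over the 15 pairs of a Bolstar and a Moneyberg list, 0.845 to 0.866 over the 3 pairs within Bolstar and 0.963 to 0.968 over the 10 pairs within Moneyberg. On the rest of chromosome 6 it was 0.636 to 0.741, 0.772 to 0.831 and 0.899 to 0.956 for the same kinds of pair. Bolstar lists thus overlapped one another less than Moneyberg lists did in both parts of the chromosome.

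Region borders in the stretch moved more. Between the cultivars, 8.66% to 10.2% of Bolstar regions had an interval with the same start and end in the Moneyberg list of the pair, against 28.1% to 34.9% on the rest of chromosome 6 and 23.9% to 25.3% on the other chromosomes. Starts alone were shared by 26.3% to 28.0% of Bolstar regions in the stretch and by 49.6% to 55.6% on the rest of chromosome 6. Within Bolstar, 20.4% to 21.8% of regions in the stretch had an identical interval in the other list of the pair, against 55.0% to 62.1% on the rest of the chromosome and 44.6% to 48.1% on the other chromosomes. Within Moneyberg the values were 54.1% to 61.2% in the stretch, 66.9% to 73.1% on the rest of the chromosome and 49.6% to 54.3% on the other chromosomes. Within Bolstar and between the cultivars, the shares in the stretch lay below those on the other chromosomes, and within Moneyberg they lay near or above them.

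**Figure D4:**
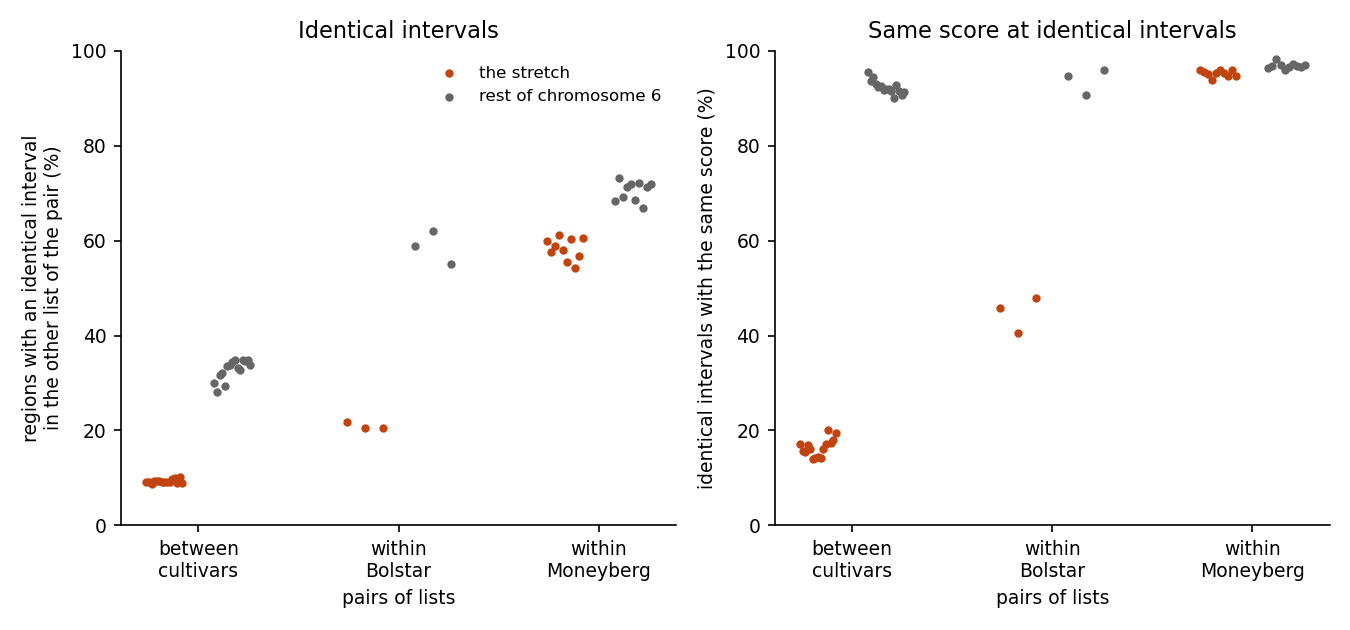
Each point is a pair of lists, grouped by kind of pair, in the stretch and on the rest of chromosome 6. The left panel plots the percent of regions of 1 list (the Bolstar list in mixed pairs) with an identical interval in the other, and the right panel the percent of identical intervals with the same score, which in the stretch is 14.0% to 20.1% between cultivars, 40.5% to 48.0% within Bolstar and 93.9% to 95.97% within Moneyberg.

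The score was lower in Bolstar even where the interval was the same. Of 322 intervals of the stretch found with identical ends in at least 1 list of each cultivar, 269 (83.5%) had a lower score in every Bolstar list that held them than in every Moneyberg list, where 6.83% of such intervals of all chromosomes did. The 95% Wilson interval of that share is 79.1% to 87.2% and covers counting over intervals only. It takes the intervals as independent, which neighbours in 1 stretch need not be, and it says nothing about replicates. The score was the same in 39 and higher in 2, where 8.51% over all chromosomes were higher, and the scores overlapped in 12. On the rest of chromosome 6, 5 of 174 intervals were lower (2.87%), 7 higher and 144 the same. On the other chromosomes, 5.05% of 13419 intervals were lower, 75.0% the same and 8.76% higher. Chromosomes 9 and 12 also differed from the others, with 21.8% lower and 28.6% higher on chromosome 9 and 2.02% lower and 36.9% higher on chromosome 12.

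The differences in score were small. The median was -2.52% of the Moneyberg score, and 84.2% of the 322 intervals had a mean Bolstar score within 5% of the mean Moneyberg score, against 12.1% with exactly the same score in all lists that held them. The lowest interval, 28506050 to 28510371, had a score of 84 in the 1 Bolstar list that held it and a mean of 103 in the 5 Moneyberg lists, a difference of -18.4%. The highest, 1088737 to 1098358, had 93 in 1 Bolstar list and a mean of 87.5 in 2 Moneyberg lists. Of the 51 intervals held by all 8 lists, 38 were lower in Bolstar, 7 the same and 0 higher, against 0 lower and 38 the same of 40 on the rest of chromosome 6. On the other chromosomes, 50 of 2906 such intervals were lower (1.72%), 2457 the same (84.5%) and 103 higher. The interval 4262503 to 4290180 (27.7 kb) scored 513 in each of the 3 Bolstar lists and 524 in each of the 5 Moneyberg lists. The interval 24361434 to 24375574 (14.1 kb) scored 134, 133 and 131 in Bolstar BABA TW2, Bolstar Ina TW2 and Bolstar control and 142 in every Moneyberg list.

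Lower scores were common only within about the edges of the stretch. From 0 to 1 Mb, outside it, 2 of 18 identical intervals were lower in Bolstar and 13 were the same. Of 16 identical intervals from 1 to 2 Mb, 0 were lower in Bolstar and 12 were the same. The first lower interval of the stretch, 2228882 to 2232966, scored 116 in all 3 Bolstar lists and 117 in the only Moneyberg list that held it. The last interval before it, 2192882 to 2199069, scored 82 in all 6 lists that held it. From 2 to 3 Mb, 10 of 18 were lower. From 3 to 31 Mb, 222 of 238 (93.3%) were lower, with a median of -3.06%. From 31 to 34 Mb the share was 37 of 50 (74.0%), with a median of -1.45%. The last lower interval of the stretch, 33828043 to 33837945, scored 168 in Bolstar Ina TW2 and 170 in Bolstar control against 177 in Moneyberg MeJA TW3. The next one, 33861046 to 33868273, scored 91 in all 8 lists. From 34 to 36 Mb, 2 of 70 were lower and 56 the same, although these bins are still densely listed. The scores thus changed within about the bounds of the stretch, which were set from listed shares of the same lists.

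**Figure D5:**
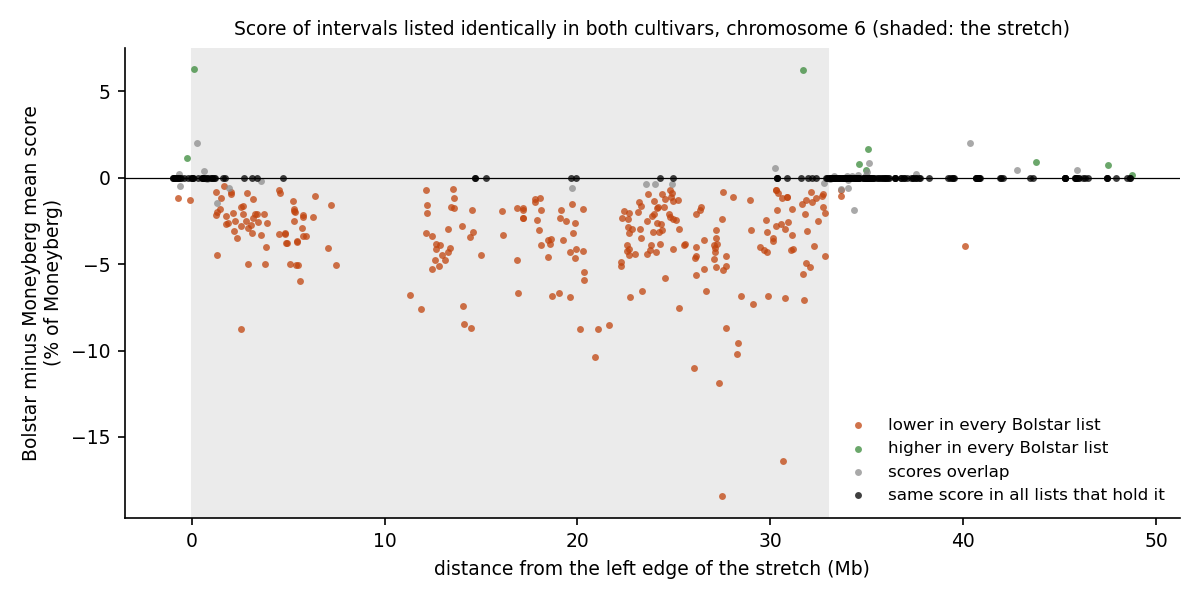
Each point is an interval of chromosome 6 listed with the same start and end in both cultivars, placed by its distance from the left edge of the stretch (Mb) and by the Bolstar minus Moneyberg mean score (percent of the Moneyberg score). Inside the shaded stretch 269 of 322 points are lower in every Bolstar list, and outside it 144 of 174 lie at 0 with the same score in all lists that hold them.

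Scores also varied among the Bolstar lists of the stretch. Of 164 intervals found in all 3 Bolstar lists, 60 (36.6%) had the same score in all 3, against 93.8% of 112 on the rest of chromosome 6 and 91.1% of 8052 on the other chromosomes. The range over the 3 lists had a median of 1 and was at most 5. Of 470 intervals found in all 5 Moneyberg lists, 93.8% had the same score, close to the 97.0% on the rest of chromosome 6 and the 92.0% on the other chromosomes.

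Score per kb of listed sequence was lower in Bolstar in the stretch and not on the rest of the chromosome. It was 18.3 in each Bolstar list and 19.3 to 19.4 in the Moneyberg lists, a difference of -1.02. On the rest of chromosome 6 the means were 16.9 in Bolstar and 16.6 in Moneyberg, and every Bolstar list lay above every Moneyberg list. Of the 17 bins of 1 Mb there, 7 (41.2%) had every Bolstar list above every Moneyberg list, and 2 had every Bolstar list below. Of 31 bins of 1 Mb of the stretch listed in all 8 lists, 24 had every Bolstar list below every Moneyberg list, where 23.0% of such bins of all chromosomes did, and 1 had the reverse order, where 10.4% did. That bin, from 11 to 12 Mb, is the one with the deepest difference in listed share, and its score per kb was 53.6 to 55.8 in Bolstar and 46.2 to 47.0 in Moneyberg. From 11 to 13 Mb the score per kb was far higher than in the other parts of the stretch. It was 53.0 to 53.9 in Bolstar and 50.04 to 50.6 in Moneyberg, and Bolstar had less listed sequence there. Without these 2 Mb the values were 16.9 to 17.0 in Bolstar and 17.7 in each Moneyberg list, a difference of -0.72.

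Lists of a treatment and its control overlapped more in the stretch than lists of different cultivars did. The Jaccard index with the control list of the cultivar was 0.866 for Bolstar BABA TW2, 0.857 for Bolstar Ina TW2 and 0.963 to 0.965 for the Moneyberg treatments, against 0.786 to 0.821 between the cultivars. The 6 comparisons of a treatment list with the control list of its cultivar have no replicates, and those of a cultivar share the control list. A treatment region with no base in the control list is called gained, and a control region with no base in the treatment list is called lost. Bolstar BABA TW2 had 41 gained regions (3.06%, where 2.67% were gained over all chromosomes) and 110 lost (7.41%, where 7.07% were lost). Bolstar Ina TW2 had 134 gained (7.92%, against 7.07% over all chromosomes) and 45 lost (3.03%, against 2.86%). These shares lay near the background.

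The Moneyberg treatments had fewer. Moneyberg BABA TW2 had 17 gained and 39 lost, where 2.91% and 4.61% were gained and lost over all chromosomes. Moneyberg BABA TW3 had 18 and 38 (2.69% and 4.49% over all chromosomes), Moneyberg Ina TW2 19 and 35 (2.67% and 4.39%) and Moneyberg MeJA TW3 16 and 46 (2.88% and 5.81%). In the stretch these are 1.18% to 1.36% of treatment regions and 2.32% to 3.05% of control regions, below the share over all chromosomes in each case. Whether gained or lost regions were more numerous changed with the minimum score in 5 comparisons. With a common minimum score of 85 in both lists, Bolstar Ina TW2 had 67 gained and 77 lost, and the Moneyberg treatments had 20 to 28 gained and 9 to 13 lost, so the order turned round in these 5 comparisons. Bolstar BABA TW2 kept its order, with 49 gained and 79 lost. In Bolstar Ina TW2 the turn depended on cutting both lists. Of its gained and lost regions against the whole other list, 61 gained and 41 lost ones scored at least 85. With regions at or above the median score of their list it had 131 gained and 62 lost.

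The highest-scoring regions that treatment and control of Bolstar did not share were also touched by Moneyberg lists. Only 7 of 1484 Bolstar control regions of the stretch had no base in any Moneyberg list, so nothing is read from this. The highest-scoring region gained in Bolstar BABA TW2, 6999978 to 7013813 (13.8 kb, score 165), and the highest-scoring lost one, 31944666 to 31953631 (8.97 kb, score 213), were each touched by Bolstar Ina TW2 and by all 5 Moneyberg lists. The highest-scoring region lost in Bolstar Ina TW2, 20597880 to 20612655 (14.8 kb, score 176), was touched by all 5 Moneyberg lists, as was the highest-scoring one gained there, 5162323 to 5177864. In Moneyberg, the highest-scoring gained region was the same for BABA TW2 and BABA TW3, 1928728 to 1933957 (5.23 kb, scores 113 and 114), which was touched by Moneyberg Ina TW2 and by no Bolstar list. Moneyberg Ina TW2 and Moneyberg MeJA TW3 shared 25007864 to 25011248 (3.39 kb, score 129) as their highest-scoring gained region, which all 3 Bolstar lists touched.

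By 1 Mb bin, listed shares of the stretch differed between treatment and control of Bolstar by -5.47 to 4.33 points for BABA TW2 and by -5.10 to 7.37 points for Ina TW2. In Moneyberg they differed by -3.25 to 3.93 points over the 4 treatments. The bin with 7.37 points was 30 to 31 Mb, where Bolstar Ina TW2 had 64.7% and Bolstar control 57.3%, both under every Moneyberg list.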

How the data were processed

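The libraries, 96 in the labels, came from whole-genome bisulfite sequencing of tomato seed DNA sequenced in pairs on a NovaSeq, per the labels' protocols. In the series description there are 90 libraries and no BABA in time window 3 for Moneyberg, a group taken here from the labels. The authors deposited 1 region list for each of 8 groups, so libraries had been combined. Trim Galore is named in the submitters' processing notes. The sources used here do not give the aligner, region caller, genome build, cytosine context, thresholds or way of pooling. The score the authors deposited for each region is a whole number and correlated with region length in the stretch (Pearson's r across regions 0.777 to 0.818 per list). Depth behind a region is unknown.

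Coordinates follow the deposited lists and count from 1. Listed shares divide listed bases by 33 Mb in the stretch and by 16.8 Mb on the rest of chromosome 6, whose end was taken as the last listed base. The stretch's own share counts whole regions by midpoint, while bins count bases. Shared means at least 1 common base, and identical means the same start and end. No test was run, since each group has 1 list. The stretch, its measures and the rules were chosen with earlier results of these data known. Named are the top 5 regions or segments of each class by score or length, the bins of largest difference, the longest region of each list and the top gained and lost region of each comparison, from which examples are given. Intervals that were first or last to differ, and single bins, were named after their values were seen. The one gene table at hand belongs to another build, so no region was assigned to a gene and no sequence was read. The interval functions were tested on simulated data. Python 3.11.15, numpy 2.4.6, pandas 2.3.3, scipy 1.17.1 and matplotlib 3.10.9 were used.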

Additional observations from a re-analysis of the deposited data

How the results depend on the processing

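Of 88 alternatives tried, 68 stayed within the spread between lists or pairs, the Wilson interval of a share, or 1.5 times a count. No difference changed its sign, but gained and lost regions entered these alternatives as their sum, which has no sign. With both lists cut at a common minimum score of 85, their order turned round in Bolstar Ina TW2 (67 gained, 77 lost). It also did in Moneyberg BABA TW2 (20, 11), BABA TW3 (24, 13), Ina TW2 (28, 11) and MeJA TW3 (27, 9). Bolstar Ina TW2 kept its order when regions scoring at least 85 were set against the whole other list (61 gained, 41 lost). With a common minimum score of 85, the share difference was -6.99 points, the Jaccard index within Moneyberg averaged 0.961, the difference in score per kb was -1.09, and Moneyberg BABA TW2, BABA TW3 and MeJA TW3 had 31, 37 and 36 regions gained or lost. With regions at or above the median score of their list, the share difference was -13.0 points, the Jaccard indices averaged 0.618 between cultivars, 0.683 within Bolstar and 0.908 within Moneyberg, and score per kb differed by -1.28. A reciprocal overlap of 50% gave 839 (Bolstar BABA TW2), 916 (Bolstar Ina TW2), 271 (Moneyberg BABA TW2), 289 (Moneyberg BABA TW3), 340 (Moneyberg Ina TW2) and 335 (Moneyberg MeJA TW3) regions gained or lost. Chosen after seeing the data, the minimum of 85 in Moneyberg alone left 62 regions without a Bolstar base, and score per kb differed by -0.72 without 11 to 13 Mb. Identical intervals with scores within 5% made up 84.2%. The causes were not tested.

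Leaving out each list in turn gave share differences of -8.37 to -7.71 points, 30 to 31 bins of 1 Mb and 166 to 184 bins of 100 kb below, 82.7% to 84.1% of identical intervals lower and 11.7% to 14.1% the same, the last pair chosen after seeing the data. No paired analysis was possible because the libraries of a group are pooled in 1 list. The rest of chromosome 6 is mostly distal and thinly listed, which limits it as a comparison.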
